A study of Mus musculus with 12 samples.

Results

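The genotype by traction interaction was measured in mouse scars as the response to traction in *Tem1*lacZ/lacZ mice minus the response to traction in *Tem1*WT/WT mice. All 12 of the 12 RNA-seq libraries of the series entered this contrast: the 4 groups held 3 male mice each. The labels code the groups as WTSH and WTTR (*Tem1*WT/WT, sham and traction) and lacZSH and lacZTR (*Tem1*lacZ/lacZ, sham and traction). Mice were 8 to 12 weeks old and received a split wound of 1.5 cm on the back. A plastic device was placed over the wound after 6 days in every group. Lengthening it by 1 mm a day until 8 mm were reached gave the traction groups, whereas sham mice wore it unstretched. In *Tem1*lacZ/lacZ mice the *lacZ* reporter replaces the single exon of *Tem1* (listed as *Cd248*) in all cells of the body, on a C57BL/6J background after 10 generations of backcrossing. A negative value means that the response to traction was lower in *Tem1*lacZ/lacZ scars, and a positive value that it was higher. RNA came from whole scar tissue, so fewer cells of a type and less RNA per cell cannot be told apart.

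TEM1 is a transmembrane glycoprotein of fibroblasts and pericytes that binds extracellular matrix proteins. Skin under tension is known to lay down more collagen, and collagen chains have to be hydroxylated, folded and exported through the endoplasmic reticulum before they are crosslinked outside the cell. Wounded skin also draws in neutrophils through CXC chemokines made under NF-kappaB, and cells in poorly perfused tissue turn to glycolysis. Hair follicles regress and regrow in cycles directed by Wnt, BMP and Hedgehog signals.

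The targeted gene was checked first. *Cd248* (chr19:5068078-5070640, GRCm38) had 119, 138 and 193 CPM (counts scaled to library size, normalized by TMM) in the *Tem1*WT/WT sham libraries and 92.4, 197 and 337 CPM under traction. In the *Tem1*lacZ/lacZ libraries it had 0.0952, 0.190 and 0.0807 CPM in sham and 0, 0.248 and 0.113 CPM under traction, or 0 to 13 counts per library. The genotype labels were borne out in all 12 libraries. Markers of skin and scar tissue were present in every library: *Krt14*, a basal keratinocyte keratin, ranged from 3051 to 24932 CPM and *Dcn*, a dermal proteoglycan, from 2233 to 3661 CPM.

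Library totals lay between 41536788 and 64644293 counts, and 18853 genes passed the filter on low counts. A single library stood apart in several gene lists. The first *Tem1*WT/WT traction library was 3.56 log2 units above the mean of all libraries over a neutrophil list of 27 genes. The other *Tem1*WT/WT traction libraries were 0.82 and 0.15 above it. The first *Tem1*WT/WT sham library was 2.69 log2 units above the mean over 31 skeletal muscle genes, against 0.86 and -0.49 in the other sham libraries of that genotype. The lists whose counts changed most are given with and without them.

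No gene passed an adjusted p of 0.05 for the interaction in edgeR's quasi-likelihood test, and the smallest adjusted p was 0.548. Without adjustment, 1680 genes (8.91%) had p under 0.05, of which 840 (4.46%) had a lower and 840 (4.46%) a higher response in *Tem1*lacZ/lacZ scars. DESeq2's Wald test on the same counts called 69 of 18728 genes (0.368%), of which 47 (0.251%) were lower and 22 (0.117%) higher. limma-voom with sample weights called 0 genes. Without the second *Tem1*WT/WT traction library edgeR called 31 genes, 1 lower and 30 higher. The counts of list members below are read against these shares, and none of them is a test of a list. The lists were written with earlier results of these data known, so their counts and ranks are a description.

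The number of genes called for traction at an edgeR adjusted p under 0.05 differed between the 2 genotypes. In *Tem1*WT/WT scars 1057 genes (5.61%) rose and 668 genes (3.54%) fell with traction at an edgeR adjusted p under 0.05. In *Tem1*lacZ/lacZ scars no gene passed in edgeR, while 1067 genes (5.66%) were higher and 463 genes (2.46%) lower at an unadjusted p under 0.05. DESeq2 called 23 genes and limma-voom 377 genes there. The unadjusted counts in *Tem1*WT/WT scars are not given here, so they cannot be set beside the 1067 and 463 genes. Adjusted p values in *Tem1*WT/WT scars could lie near the cutoff at large responses: *Nos2*, at log2 6.51, had an edgeR adjusted p of 0.017. A difference between counts of calls is not a test of the interaction. The 2 contrasts share no library, and over all genes tested 68.4% had the same sign in both (r = 0.483 across genes, which are not independent replicates). Of the 1725 genes called in *Tem1*WT/WT scars, 88.7% had the same sign in *Tem1*lacZ/lacZ scars. The 1057 genes that rose had a median log2 fold change of 1.19 in *Tem1*WT/WT scars and 0.42 in *Tem1*lacZ/lacZ scars, and the 668 that fell had medians of -1.55 and -0.37. These genes were selected by their test in *Tem1*WT/WT scars, so their values there are a description. Selection by an unadjusted p under 0.05 in *Tem1*lacZ/lacZ scars gave other medians. Its 1067 higher genes had 0.64 in *Tem1*WT/WT and 0.69 in *Tem1*lacZ/lacZ scars, and its 463 lower genes -0.51 and -0.81. The count of 1725 calls changed when single libraries were left out. In *Tem1*WT/WT scars 0 genes were called without the first or without the second sham library of that genotype. The count was 360 without the first and 2861 without the second *Tem1*WT/WT traction library. Leaving out a library also makes its group smaller, and the part of this in the counts was not tested.

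The 840 genes with a lower response were made up of 367 genes (43.7%) that were higher under traction in both genotypes but less so in *Tem1*lacZ/lacZ scars, 472 genes (56.2%) that were higher in *Tem1*WT/WT and lower in *Tem1*lacZ/lacZ scars, and 1 gene that was lower in both. The 840 genes with a higher response were made up of 334 genes (39.8%) that were lower under traction in both genotypes, 499 genes (59.4%) that were lower in *Tem1*WT/WT and higher in *Tem1*lacZ/lacZ scars, and 7 genes that were higher in both. The change with traction was larger in *Tem1*WT/WT scars for 91.9% of the first set and 89.6% of the second, against 68.1% of all genes tested. Of all genes tested with an estimate below 0, 46.5% rose less in *Tem1*lacZ/lacZ scars and 32.3% had the signs of the 472 genes. Of those above 0, 49.5% fell less and 30.9% had the signs of the 499 genes. The 472 genes had a median *Tem1*lacZ/lacZ response of -0.21, with 41 at an unadjusted p under 0.05 there. For the 499 genes these were 0.31 and 56. The genes were selected by their interaction p, so the classes are a description.

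**Figure D1:**
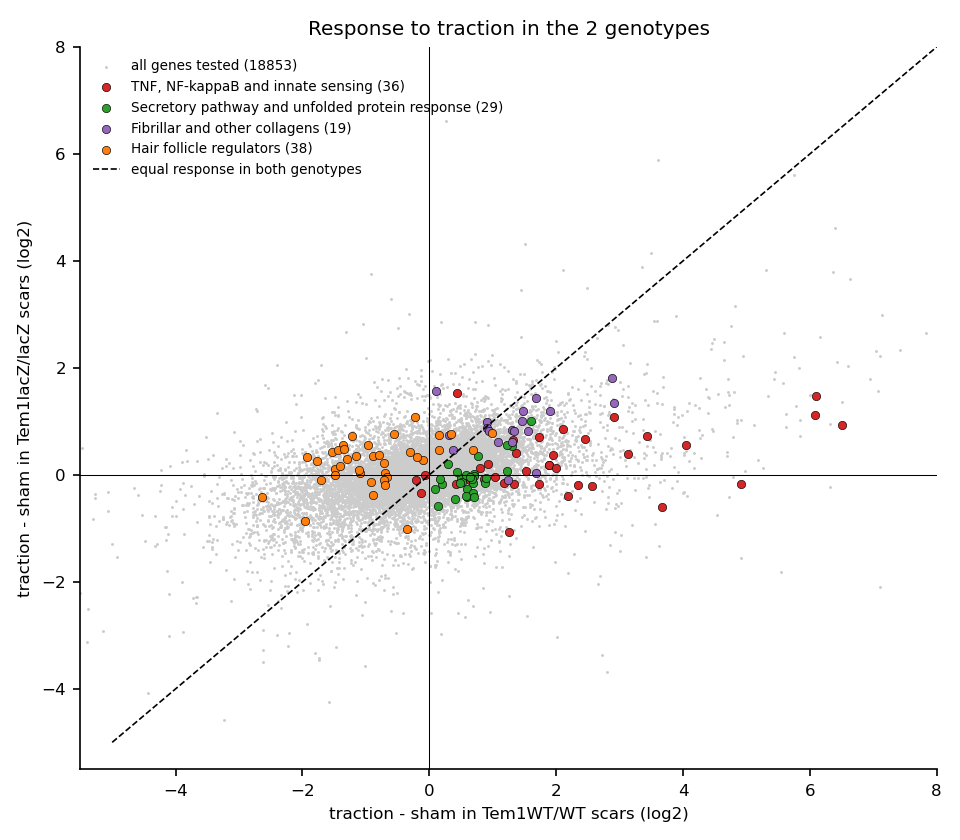
Log2 fold change of each gene with traction in Tem1WT/WT scars (x axis) and in Tem1lacZ/lacZ scars (y axis), with 4 gene lists coloured and 31 genes outside the axes. TNF and NF-kappaB genes lie far to the right and near 0 on the y axis, the collagens lie closer to the dashed line of equal response, and hair follicle regulators lie mostly on the left, at or above 0 on the y axis.

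The genes with the smallest interaction p and a lower response included secreted regulators, matrix genes and genes of red cells. *Tsku*, which encodes the secreted proteoglycan tsukushi (chr7:98350668-98361390), had 18.8, 21.9 and 22.2 CPM in *Tem1*WT/WT sham scars and 41.3, 40.0 and 55.9 CPM under traction. It had 25.4, 19.5 and 25.2 CPM in *Tem1*lacZ/lacZ sham scars and 19.96, 20.7 and 17.7 CPM under traction. The *Tem1*WT/WT traction libraries lay above the 9 others, and the interaction was -1.39 ± 0.24 (log2, SE) with a DESeq2 adjusted p of 0.0010. *Pvr*, a nectin-like adhesion receptor, had 13.7 to 17.0 CPM in *Tem1*WT/WT sham scars, 28.6 to 41.1 CPM under traction, 11.4 to 15.6 CPM in *Tem1*lacZ/lacZ sham scars and 10.8 to 11.5 CPM under traction (interaction -1.46 ± 0.25). *Fibin* (-1.95 ± 0.35), *Tmem252* (-2.03 ± 0.38) and *Vwa1*, a matrix protein with a von Willebrand domain (-0.99 ± 0.21), also had the *Tem1*WT/WT traction libraries above the 9 others. All 5 genes rose with traction in *Tem1*WT/WT scars at edgeR adjusted p of 0.015 to 0.024, and DESeq2 called the interaction of each. For all genes tested, the *Tem1*WT/WT traction libraries lay above the 9 others in 9.61% and below them in 7.61%.

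*Nos2*, the inducible nitric oxide synthase (chr11:78920787-78960226), had 1.74, 1.13 and 3.11 CPM in *Tem1*WT/WT sham scars and 391, 86.8 and 66.8 CPM under traction. The *Tem1*lacZ/lacZ scars had 1.40, 1.16 and 1.09 CPM in sham and 1.85, 3.64 and 1.51 CPM under traction. The interaction was -5.57 ± 0.96 (log2) with all libraries and -4.28 without the first *Tem1*WT/WT traction library.

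**Figure D2:**
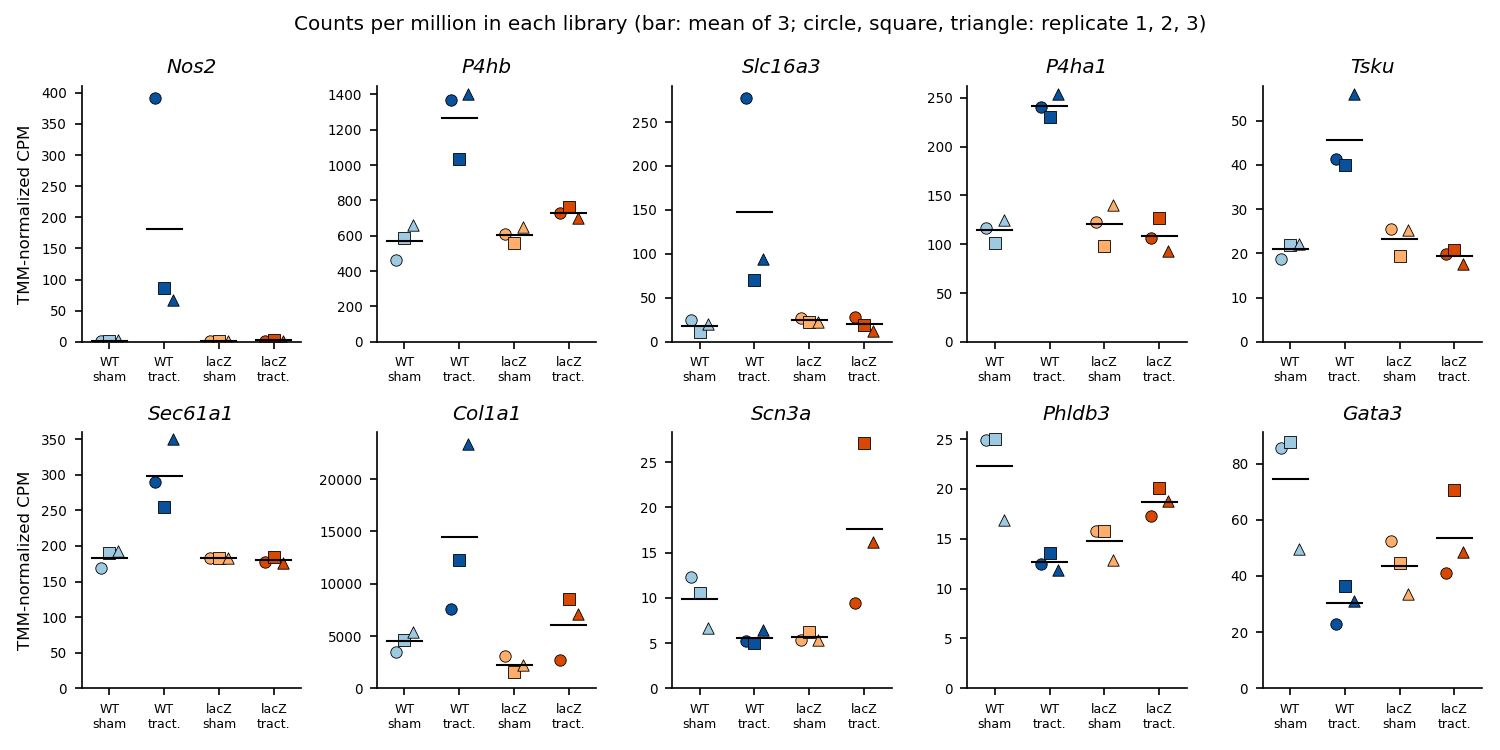
TMM-normalized CPM of 10 genes in each of the 12 libraries, with a bar at the mean of 3. In Nos2, P4hb, Slc16a3, P4ha1, Tsku and Sec61a1 the 3 Tem1WT/WT traction libraries lie above the 9 others, Col1a1 is higher in most traction libraries of both genotypes, and Scn3a, Phldb3 and Gata3 have lower means under traction than in sham in Tem1WT/WT scars and higher means in Tem1lacZ/lacZ scars.

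The secretory pathway had the largest share of members with a low p. This list holds chaperones, translocon subunits and transducers of the unfolded protein response, the programme that enlarges the folding capacity of the endoplasmic reticulum. Of 29 members tested, 20 had a lower response in *Tem1*lacZ/lacZ scars at an unadjusted p under 0.05 and 0 a higher one, and all 29 estimates were below 0, as were 50.2% of all genes. The median log2 response was 0.64 in *Tem1*WT/WT scars and -0.07 in *Tem1*lacZ/lacZ scars, and the median interaction was -0.71. Sham *Tem1*lacZ/lacZ scars were at a median of 0.21 above sham *Tem1*WT/WT scars over this list. Without the first *Tem1*WT/WT traction library 14 of 29 members had p under 0.05 (2.89% of all genes), and the median interaction was -0.59. The count was lowest, at 12, without the first *Tem1*WT/WT sham library.

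*Sec61a1*, the pore of the translocon, had little spread in the other 3 groups. It had 168, 190 and 193 CPM in *Tem1*WT/WT sham scars and 290, 255 and 350 CPM under traction, where it rose (edgeR adjusted p = 0.029). In *Tem1*lacZ/lacZ scars it had 183 CPM in all 3 sham libraries and 177, 185 and 177 CPM under traction (interaction -0.73 ± 0.20). *Xbp1*, the transcription factor of the IRE1 branch of the unfolded protein response, had 157, 147 and 162 CPM in *Tem1*WT/WT sham scars and 334, 189 and 235 CPM under traction. It had 252, 227 and 195 CPM in *Tem1*lacZ/lacZ sham scars and 195, 148 and 165 CPM under traction (interaction -1.11 ± 0.29). Sham *Tem1*lacZ/lacZ scars were at 0.53 log2 relative to sham *Tem1*WT/WT scars for *Xbp1*, a difference whose test is not given here. *Creld2*, a disulfide isomerase of the endoplasmic reticulum, had an interaction of -1.03 ± 0.27, and *Hspa5*, the chaperone BiP, one of -1.01 ± 0.29.

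Promoters of these genes are shown because the unfolded protein response acts through a known element there. The endoplasmic reticulum stress response element, searched on both strands by its full consensus, was found in 7 of the 23 members that have promoter sequence here, or 30.4%, against 22 of 13697 genes tested with promoter sequence (0.161%). Promoters were 300 bases long, from 250 before to 50 after each RefSeq start, and a gene counted if any of its starts held the element. The list was written as a list of such genes, so this share describes the list and not the interaction. The members with the element were *Calr*, *Canx*, *Creld2*, *Dnajc3*, *Hsp90b1*, *Hspa5* and *Pdia6*. The stretches below come from RefSeq (GRCm38.p6), run 5′ to 3′ on the strand of the gene and lie before its start, and capitals mark the element. That of *Hspa5* lies at chr2:34771980-34772088 on the plus strand, that of *Creld2* at chr15:88819475-88819583 on the plus strand and that of *Calr* at chr8:84847030-84847138 on the minus strand.
Hspa5: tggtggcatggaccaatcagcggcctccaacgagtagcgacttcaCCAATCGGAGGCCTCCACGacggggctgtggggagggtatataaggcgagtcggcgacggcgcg
Creld2: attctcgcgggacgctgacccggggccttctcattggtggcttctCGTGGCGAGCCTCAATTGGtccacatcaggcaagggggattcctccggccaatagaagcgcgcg
Calr: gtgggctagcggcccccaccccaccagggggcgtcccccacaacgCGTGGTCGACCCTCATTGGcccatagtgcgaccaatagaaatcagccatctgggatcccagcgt
In *Creld2* and *Calr* the element is on the opposite strand and reads as its reverse complement. The interaction of the 7 members ranged from -1.03 in *Creld2* to -0.24 in *Canx*, and the p of *Dnajc3*, *Hsp90b1* and *Canx* was over 0.05.

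Enzymes that modify collagen differed from the collagens themselves in how many members had a low p. Of 21 genes for collagen processing and crosslinking, 9 had a lower response in *Tem1*lacZ/lacZ scars at an unadjusted p under 0.05 and 1 a higher one (*Pcolce2*, an enhancer of procollagen cleavage, 1.60 ± 0.68). The median log2 response was 1.26 in *Tem1*WT/WT scars, where 15 members rose and 1 fell, and 0.44 in *Tem1*lacZ/lacZ scars. Of 19 collagen genes, 3 had a lower response (*Col12a1*, *Col11a2* and *Col5a3*) and 0 a higher one. Their median log2 response was 1.30 in *Tem1*WT/WT scars and 0.84 in *Tem1*lacZ/lacZ scars, and 9 of the 19 were higher there at an unadjusted p under 0.05, against 5.66% of all genes. The difference between the 2 lists was not tested. Without the first *Tem1*WT/WT traction library, 14 of the 21 processing genes and 2 of the 19 collagens had a lower response, and without the third the median of the collagens moved from -0.46 to 0.04.

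*P4ha1*, the catalytic subunit of prolyl 4-hydroxylase (chr10:59323197-59373304), had 116, 102 and 125 CPM in *Tem1*WT/WT sham scars and 240, 231 and 254 CPM under traction. *Tem1*lacZ/lacZ scars had 123, 98.0 and 140 CPM in sham and 106, 126 and 93.4 CPM under traction, which overlapped. The interaction was -1.23 ± 0.24 with a DESeq2 adjusted p of 0.0022. *P4hb*, the other subunit of that enzyme, rose from 464, 587 and 662 CPM to 1367, 1033 and 1401 CPM in *Tem1*WT/WT scars (edgeR adjusted p = 0.024). It had 608, 562 and 649 CPM in *Tem1*lacZ/lacZ sham scars and 731, 760 and 702 CPM under traction, without overlap (interaction -0.88 ± 0.26). *Plod3*, a lysyl hydroxylase, had an interaction of -0.89 ± 0.27. *Plod2* (-1.79 ± 0.57), *Bmp1*, a procollagen C-proteinase (-1.22 ± 0.39), and *Loxl2*, a lysyl oxidase (-1.36 ± 0.47), were also among the 9. *Lox* itself had an interaction of -0.50 ± 0.49 with values of 1.61 and 1.11 in the 2 genotypes.

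*Col1a1*, the main chain of scar collagen, had 3475, 4635 and 5368 CPM in *Tem1*WT/WT sham scars and 7601, 12293 and 23366 CPM under traction. In *Tem1*lacZ/lacZ scars it had 3050, 1536 and 2202 CPM in sham and 2700, 8500 and 7091 CPM under traction, so 2 of the 3 traction libraries lay above all sham libraries of that genotype. Log2 values of 1.68 and 1.43 left an interaction of -0.25 ± 0.68, whose sign turned under 4 of 20 alternatives. *Col1a2* (-0.28 ± 0.67) and *Col3a1* (-0.47 ± 0.58) gave similarly wide errors. *Col12a1*, a fibril-associated collagen, was 1 of the 3 with a low p: 181, 523 and 622 CPM became 3102, 2751 and 4087 CPM in *Tem1*WT/WT scars, and 648, 343 and 422 CPM became 824, 1743 and 1009.8 CPM in *Tem1*lacZ/lacZ scars (interaction -1.57 ± 0.62).

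**Figure D3:**
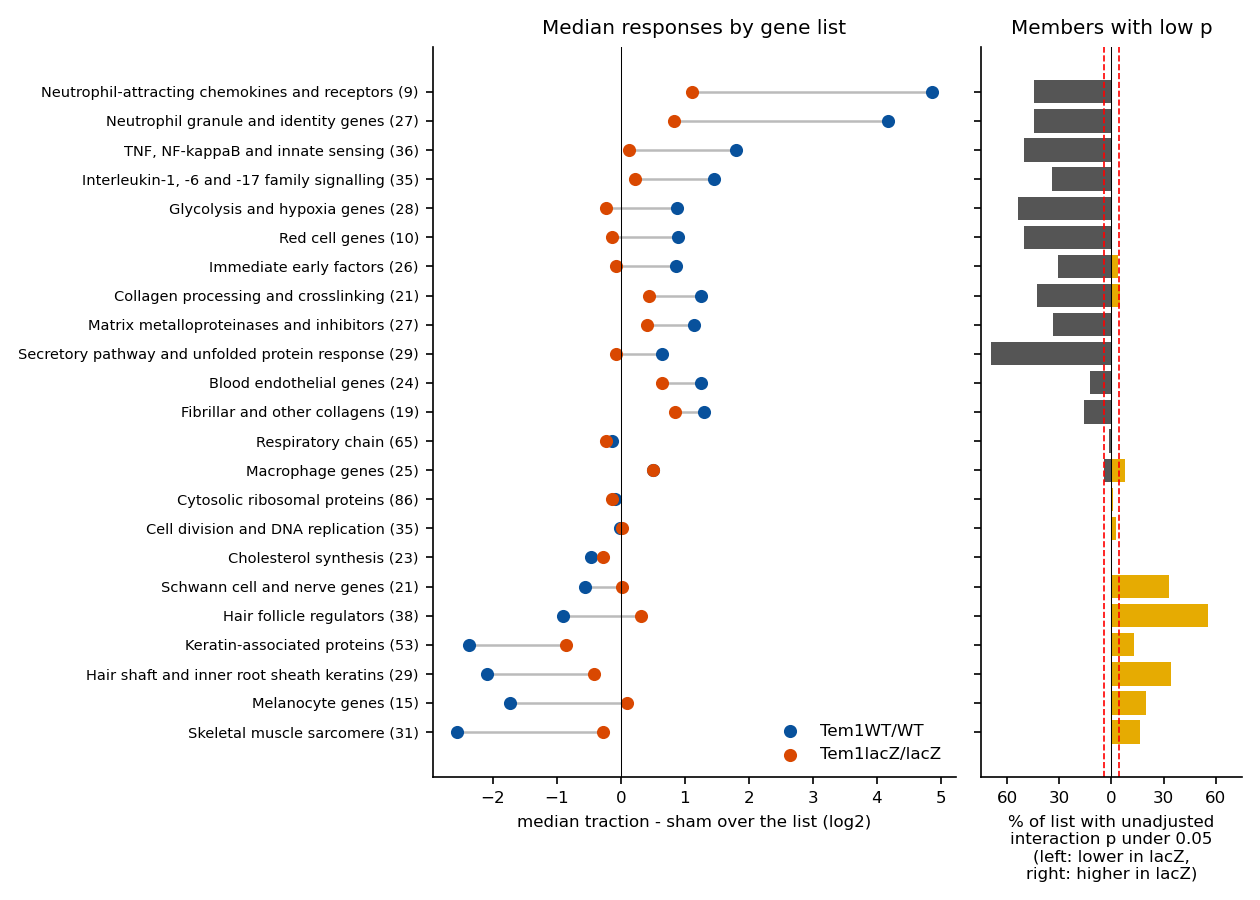
Left, the median log2 response to traction over each gene list (number of members tested in brackets) in Tem1WT/WT and Tem1lacZ/lacZ scars. Right, the share of members with an unadjusted interaction p under 0.05 in each direction, with dashed lines at the 4.46% found over all genes, exceeded most by the secretory pathway on the left and by hair follicle regulators on the right.

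Genes of glycolysis and the hypoxic response had medians of opposite sign in the 2 genotypes. Of 28 members tested, 15 had a lower response at an unadjusted p under 0.05 and 0 a higher one, and 27 estimates were below 0. The median log2 response was 0.88 in *Tem1*WT/WT scars, where 9 members rose, and -0.23 in *Tem1*lacZ/lacZ scars. Without the first *Tem1*WT/WT traction library 8 of 28 members had a low p and the median interaction moved from -1.14 to -0.68. The count was lowest, at 7, without the first *Tem1*lacZ/lacZ sham library. *Slc16a3*, the lactate exporter MCT4 (chr11:120948484-120959000), had 24.4, 11.2 and 19.7 CPM in *Tem1*WT/WT sham scars and 278, 70.5 and 94.1 CPM under traction. Levels in *Tem1*lacZ/lacZ scars were 27.6, 22.5 and 22.7 CPM in sham and 27.8, 19.4 and 12.7 CPM under traction (interaction -3.28 ± 0.70, and -2.40 without that library).

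*Ankrd37*, a target of hypoxia-inducible factor, had traction libraries above sham in *Tem1*WT/WT and below sham in *Tem1*lacZ/lacZ scars without overlap, as had 0.451% of genes in opposite directions. It had 4.23, 3.61 and 4.41 CPM in *Tem1*WT/WT sham scars and 7.78, 6.80 and 6.18 CPM under traction, against 4.88, 6.34 and 5.59 CPM and then 4.29, 3.22 and 3.02 CPM in *Tem1*lacZ/lacZ scars. The interaction was -1.44 ± 0.30 with a DESeq2 adjusted p of 0.0018. *Vegfa*, the vascular endothelial growth factor, had 65.2, 37.5 and 40.6 CPM in *Tem1*WT/WT sham scars and 116, 85.1 and 66.8 CPM under traction. It had 75.1, 43.2 and 45.6 CPM in *Tem1*lacZ/lacZ sham scars and 33.0, 34.8 and 33.1 CPM under traction, the lowest of the 12 libraries (interaction -1.60 ± 0.39). *Slc2a1*, the glucose transporter GLUT1 (-1.84 ± 0.66), *Pgam1* (-1.27 ± 0.32) and *Pfkl* (-1.35 ± 0.40), enzymes of glycolysis, and *Hif1a* (-1.26 ± 0.48) showed the same sign. Their *Tem1*lacZ/lacZ responses were -0.10, -0.01, 0.03 and 0.26.

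The core of the hypoxia response element, ACGTG on either strand, was found in promoters of 17 of the 25 members with promoter sequence (68%), against 26.6% of 13697 genes, which again describes a list written around this pathway. A stretch of *Slc16a3* at chr11:120948995-120949066 (plus strand, GRCm38.p6) and of *Pgam1* at chr19:41911712-41911806 (plus strand) show it in capitals. The first holds another copy in lower case nearer the start.
Slc16a3: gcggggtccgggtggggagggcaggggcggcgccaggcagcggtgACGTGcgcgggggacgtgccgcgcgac
Pgam1: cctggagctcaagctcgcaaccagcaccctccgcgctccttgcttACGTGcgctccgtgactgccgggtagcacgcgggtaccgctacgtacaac

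Neutrophil genes and their chemokines had the list medians farthest from 0, and the inflammatory lists moved with 1 library. Of 36 genes of TNF, NF-kappaB and innate sensing, 18 had a lower response in *Tem1*lacZ/lacZ scars and 0 a higher one, with median log2 responses of 1.81 and 0.13. Without the first *Tem1*WT/WT traction library 5 of 36 had a low p and the median interaction moved from -1.64 to -0.37. Of the 27 genes of the neutrophil list, 12 had a lower response (4 without that library), with medians of 4.17 and 0.83. The median interaction of that list moved from -2.89 to -0.42. Lists can share members: the neutrophil list also held *Mmp9*, counted again among the metalloproteinases, and *Ptgs2*. Its median *Tem1*WT/WT response of 4.17 is the value of *Mmp9*, and its lowest interaction (-5.10) that of *Ptgs2*. The list is thus not confined to defining markers of neutrophils, and its values are not a measure of neutrophil number. Of 35 genes of interleukin signalling, 12 had a lower response (7 without that library), and the median moved from -1.21 to -0.32. Of 9 neutrophil-attracting chemokines and receptors, 4 had a lower response with and without that library, and the median moved from -3.88 to -1.83.

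The neutrophil markers themselves show the spread. *S100a9*, a calprotectin subunit, had 3935, 125 and 141 CPM in *Tem1*WT/WT traction scars and 8.51, 45.4 and 31.1 CPM in sham. The *Tem1*lacZ/lacZ scars had 104, 89.8 and 109 CPM in sham and 302, 118 and 141 CPM under traction. Only the first *Tem1*WT/WT traction library lay above the *Tem1*lacZ/lacZ traction libraries. *Csf3r*, the receptor for G-CSF, had 954, 285 and 51.6 CPM in *Tem1*WT/WT traction scars against 39.7, 58.3 and 33.9 CPM in *Tem1*lacZ/lacZ traction scars. *Ly6g* and *Ngp*, defining markers of neutrophils, did not pass the filter on low counts. Summed over the list, neutrophil genes ranged from 501 to 1049 CPM in *Tem1*WT/WT sham, 1454 to 15403 in *Tem1*WT/WT traction, 1330 to 1497 in *Tem1*lacZ/lacZ sham and 1309 to 2710 CPM in *Tem1*lacZ/lacZ traction scars. The part of this library in the inflammatory lists is measured only by leaving it out.

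Several inflammatory genes had a low p without that library too. *Cxcl1*, a ligand of the neutrophil receptor CXCR2, had 1.19, 1.09 and 3.82 CPM in *Tem1*WT/WT sham scars and 66.4, 37.6 and 15.8 CPM under traction. It had 1.81, 1.42 and 1.68 CPM in *Tem1*lacZ/lacZ sham scars and 2.17, 2.54 and 1.38 CPM under traction (interaction -3.98 ± 0.81, and -3.36 without that library). *Cxcl5*, another such ligand, had 352, 114 and 55.9 CPM in *Tem1*WT/WT traction scars and 23.9, 23.6 and 2.28 CPM in *Tem1*lacZ/lacZ traction scars, from at most 2.90 CPM in sham (interaction -4.15 ± 1.23). Its level was thus above sham in 2 of 3 *Tem1*lacZ/lacZ traction scars. *Tnfaip6*, a hyaluronan-modifying protein induced by TNF, had 16.1, 20.1 and 43.8 CPM in *Tem1*WT/WT sham scars and 56.2, 48.2 and 86.0 CPM under traction, against 33.9, 22.5 and 55.4 CPM and then 21.9, 10.6 and 20.6 CPM in *Tem1*lacZ/lacZ scars (interaction -2.33 ± 0.63, and -2.36 without that library). *Ptgs2*, the inducible cyclooxygenase, had -5.10 ± 1.48 with it and -2.45 without it.

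*Il6* had 0.152, 0.319 and 1.11 CPM in *Tem1*WT/WT sham scars, 13.8, 8.99 and 1.58 CPM under traction and at most 1.18 CPM in *Tem1*lacZ/lacZ scars (interaction -3.88 ± 1.15). *Ccl2*, the monocyte chemokine, had 5.38, 3.73 and 11.9 CPM in *Tem1*WT/WT sham scars, 18.7, 9.85 and 19.6 CPM under traction, 9.83, 10.4 and 15.2 CPM in *Tem1*lacZ/lacZ sham scars and 9.04, 5.32 and 9.65 CPM under traction (-1.76 ± 0.60). Macrophage genes as a list showed no difference of medians: both genotypes had a median response of 0.51 over 25 genes, and 1 had a lower and 2 a higher response. Promoters of 5 of the 27 TNF and NF-kappaB members with promoter sequence held the kappaB consensus on either strand (18.5%), against 2.16% of 13697 genes. The list was written around this pathway, so this share describes the list and not the interaction. The 5 members were *Casp4*, *Nfkb2*, *Nfkbia*, *Rel* and *Tnfaip3*. Their interaction p in edgeR's quasi-likelihood test was 0.027 for *Nfkb2*, 0.035 for *Nfkbia*, 0.039 for *Tnfaip3*, 0.094 for *Casp4* and 0.24 for *Rel*. *Nfkb2*, a subunit of NF-kappaB (interaction -1.46), is shown at chr19:46305680-46305759 (plus strand, GRCm38.p6), with the match in capitals.
Nfkb2: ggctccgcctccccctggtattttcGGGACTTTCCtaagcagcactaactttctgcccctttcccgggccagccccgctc

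**Figure D4:**
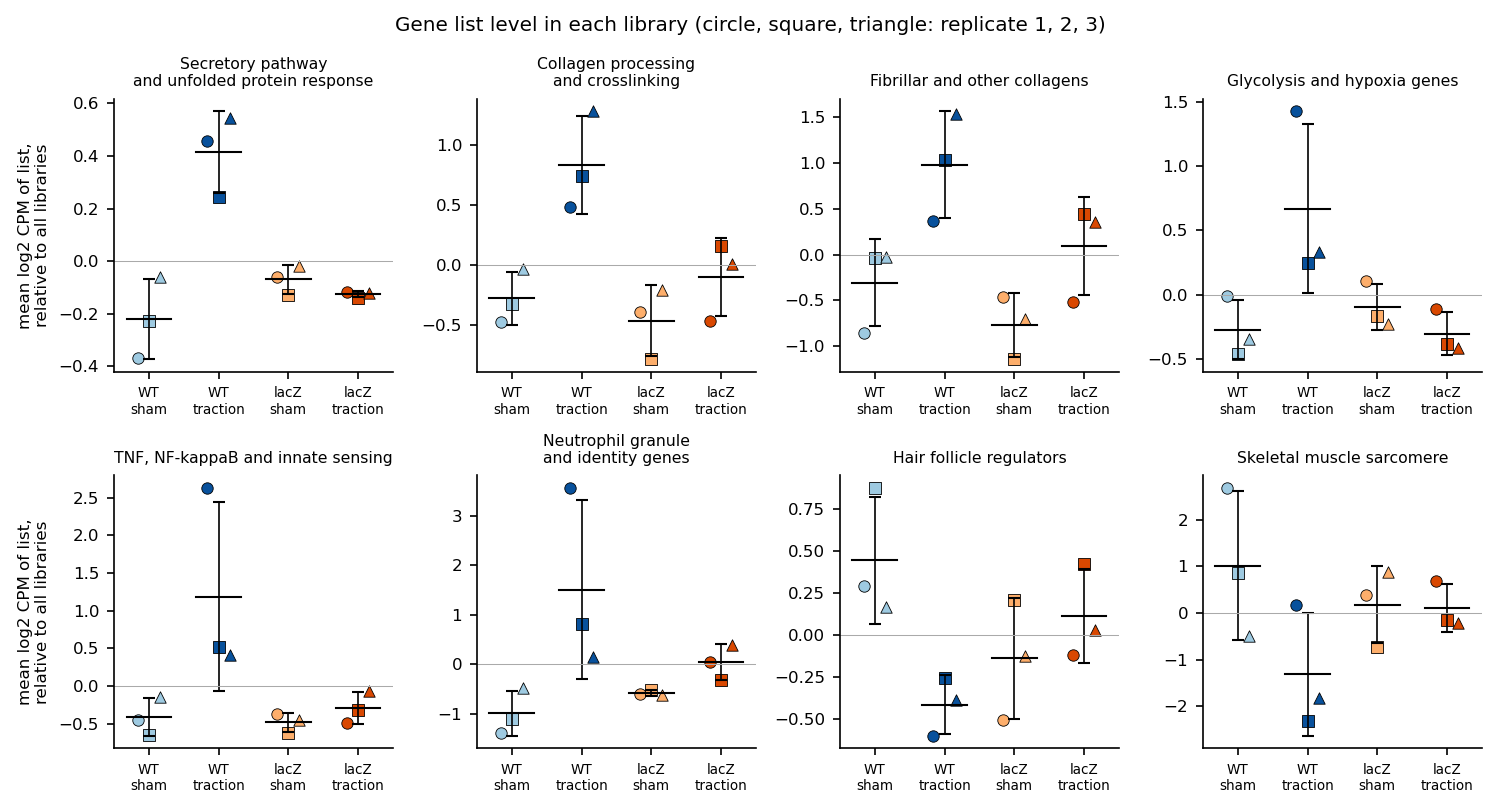
Mean log2 CPM of 8 gene lists in each library, relative to the mean of all 12 libraries, with the group mean and SD (n = 3) as bars. The first Tem1WT/WT traction library (circle) is far above the others in neutrophil and TNF, NF-kappaB genes, all 3 Tem1WT/WT traction libraries are above the 9 others in the secretory pathway, and the first Tem1WT/WT sham library is at 2.69 in skeletal muscle.

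Matrix proteases, matricellular proteins and immediate early factors had some members with a low p, nearly all in the direction of a lower response. Of 27 metalloproteinases and their inhibitors, 9 had a low p in that direction and 0 in the other, with a median interaction of -0.85 (5 genes and -0.50 without the first *Tem1*WT/WT traction library). *Mmp9*, a gelatinase, had 22.0, 12.01 and 24.1 CPM in *Tem1*WT/WT sham scars and 757, 141 and 150 CPM under traction, and 7.33 to 27.0 CPM in all *Tem1*lacZ/lacZ libraries (interaction -3.76 ± 0.91). Of 26 matricellular and scar matrix proteins, 7 had a lower response and 0 a higher one (median -0.54), and 3 had a lower one without the first *Tem1*lacZ/lacZ traction library. *Tnc*, which encodes tenascin C, had 88.9, 417 and 310 CPM in *Tem1*WT/WT sham scars and 7503, 1049 and 2412 CPM under traction, against 521, 216 and 439 CPM and then 673, 571 and 308 CPM in *Tem1*lacZ/lacZ scars (interaction -3.35 ± 1.02). *Thbs1*, thrombospondin 1, gave -2.24 ± 0.68.

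*Ctgf*, a matricellular target of TGF-beta and YAP, had 79.3, 65.5 and 73.8 CPM in *Tem1*WT/WT sham scars and 104, 129 and 158 CPM under traction. It had 51.7, 79.4 and 97.0 CPM in *Tem1*lacZ/lacZ sham scars and 54.0, 46.3 and 51.6 CPM under traction (interaction -1.43 ± 0.31, DESeq2 adjusted p = 0.022). The list of 21 YAP/TAZ targets as a whole had a median interaction of -0.05, with 4 members lower. Of 28 genes of TGF-beta ligands, receptors and response, 8 had a lower and 1 a higher response (median -0.36), with 3 lower without the first *Tem1*WT/WT traction library and 2 without the first *Tem1*lacZ/lacZ sham library. Of 26 immediate early factors, 8 had a lower and 1 a higher response, and 3 and 0 without the first *Tem1*WT/WT traction library, with medians of -1.03 and -0.32. The AP-1 sequence TGANTCA was found for 0 of the 21 members of this list with promoter sequence and for 7.51% of the 13697 genes. This list is small and holds the factors themselves, so the 0 is not read as a lack of the sequence.

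*Per1*, a clock gene that also responds to glucocorticoids, and *Errfi1*, a feedback inhibitor of the EGF receptor, were further genes with a lower response. Of 19 circadian clock genes, 3 had a lower and 1 a higher response. Their median interaction was 0.22, with 7 estimates below 0 and 12 above. *Per1* had 97.1, 98.0 and 95.2 CPM in *Tem1*WT/WT sham scars and 226, 140 and 154 CPM under traction. The *Tem1*lacZ/lacZ scars had 52.7, 46.4 and 57.1 CPM in sham and 42.8, 37.9 and 47.5 CPM under traction (interaction -1.13 ± 0.25). Sham *Tem1*lacZ/lacZ scars were at -0.89 log2 relative to sham *Tem1*WT/WT scars, a difference whose test is not given here. *Errfi1* had 132, 111 and 140 CPM and then 132, 175 and 178 CPM in *Tem1*WT/WT scars, and 80.7, 91.6 and 101 CPM and then 60.4, 50.1 and 54.9 CPM in *Tem1*lacZ/lacZ scars. Its *Tem1*lacZ/lacZ groups did not overlap (log2 -0.72), as in 12.9% of all genes, and the interaction was -1.06 ± 0.23 with a DESeq2 adjusted p of 0.012. In the other direction, *Rora*, a nuclear receptor of the clock, fell with traction in *Tem1*WT/WT scars (edgeR adjusted p = 0.038) and had an interaction of 0.99 ± 0.28.

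Vessel genes had medians above 0 in both genotypes. Of 24 blood endothelial genes, 16 rose in *Tem1*WT/WT scars at an edgeR adjusted p under 0.05 and 14 were higher in *Tem1*lacZ/lacZ scars at an unadjusted p under 0.05, with medians of 1.26 and 0.65. Of these genes 3 had a lower response and 0 a higher one. Of 32 genes of angiogenic signalling, 4 had a lower and 2 a higher response. Their median interaction was -0.18, with 20 estimates below 0 and 12 above. Single signals that guide vessel growth had larger values. *Dll4*, a Notch ligand of sprouting endothelium, had 3.15, 4.83 and 6.36 CPM in *Tem1*WT/WT sham scars and 16.9, 12.3 and 18.1 CPM under traction, against 6.04, 4.48 and 4.56 CPM and then 4.66, 6.54 and 5.88 CPM in *Tem1*lacZ/lacZ scars (interaction -1.54 ± 0.39). *Apln*, the apelin peptide, gave -1.64 ± 0.46 and *Pgf*, placental growth factor, -2.55 ± 0.62 (-1.67 without the first *Tem1*WT/WT traction library). *Mmrn1*, a multimerin of lymphatic endothelium, had the opposite sign at 1.57 ± 0.42.

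Of 10 red cell genes tested, 5 had a lower response and 0 a higher one (4 and 0 without the first *Tem1*WT/WT traction library). *Hbb-bs*, a beta globin, had 35.5, 42.0 and 38.9 CPM in *Tem1*WT/WT sham scars and 97.3, 103 and 85.6 CPM under traction. *Tem1*lacZ/lacZ scars had 44.5, 47.5 and 51.6 CPM in sham and 44.5, 34.6 and 58.8 CPM under traction (interaction -1.36 ± 0.25). *Hba-a1* (-1.18 ± 0.23) and *Alas2*, the first enzyme of haem synthesis in red cells (-1.19 ± 0.25), had the same sign. Reads of globin genes can be shared between near-identical copies, so how they divide among the copies is uncertain.

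In the opposite direction, hair follicle regulators had the most members with a low p. Of 38 transcription factors, ligands and receptors of the follicle, 21 had a higher response in *Tem1*lacZ/lacZ scars at an unadjusted p under 0.05 and 0 a lower one, and 35 estimates were above 0. The median log2 response was -0.90 in *Tem1*WT/WT scars, where 7 members fell, and 0.32 in *Tem1*lacZ/lacZ scars. Without the first *Tem1*WT/WT traction library 19 of 38 had a low p (5.10% of all genes), with a median of 1.28 against 1.18, but without the second *Tem1*lacZ/lacZ traction library only 7 had. Sham *Tem1*lacZ/lacZ scars were at a median of -0.63 relative to sham *Tem1*WT/WT scars, a difference that was not tested over the list.

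*Gata3*, a transcription factor of the inner root sheath, had 85.7, 87.8 and 49.7 CPM in *Tem1*WT/WT sham scars and 23.0, 36.5 and 31.1 CPM under traction. Levels in *Tem1*lacZ/lacZ scars were 52.4, 44.8 and 33.6 CPM in sham and 41.1, 70.7 and 48.4 CPM under traction (interaction 1.59 ± 0.40). *Lhx2*, a factor of hair follicle stem cells, had 23.7, 42.5 and 19.9 CPM in *Tem1*WT/WT sham scars and 8.68, 12.9 and 9.04 CPM under traction, and 13.4 to 27.2 CPM in all *Tem1*lacZ/lacZ libraries (interaction 1.61 ± 0.46). Both fell with traction in *Tem1*WT/WT scars (edgeR adjusted p = 0.033). The ligands *Bmp2* (1.15 ± 0.36) and *Bmp4* (1.49 ± 0.51) and the factor *Foxe1* (1.91 ± 0.64) had the same sign.

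The structural genes of hair had medians below 0 in both genotypes, nearer 0 in *Tem1*lacZ/lacZ scars. Of 29 keratins and partners of the hair shaft and inner root sheath, 10 had a higher response, with median log2 responses of -2.09 and -0.41. That count was 3 without the first *Tem1*WT/WT traction library, 2 without the first *Tem1*lacZ/lacZ traction library and 26 without the second *Tem1*lacZ/lacZ sham library. *Tchh*, which encodes trichohyalin, had 7641, 13185 and 6371 CPM in *Tem1*WT/WT sham scars and 1653, 3469 and 1758 CPM under traction, against 1928, 5637 and 3905 CPM and then 4284, 4749 and 3292 CPM in *Tem1*lacZ/lacZ scars (interaction 2.09 ± 0.62). *Krt71*, an inner root sheath keratin, ranged from 1047 to 8585 CPM within *Tem1*lacZ/lacZ sham scars alone. Of 53 keratin-associated proteins, 24 fell in *Tem1*WT/WT scars and 7 had a higher response, with medians of -2.36 and -0.86, and 34 had a higher one without the second *Tem1*lacZ/lacZ sham library. These genes form families of near-identical members, so reads can be shared between them.

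Melanocyte, nerve and muscle genes had medians of the same sign. All 15 melanocyte genes had estimates above 0 (median 1.83), and 3 had a low p, or 10 without the second *Tem1*lacZ/lacZ sham library. The first *Tem1*lacZ/lacZ sham library was at -2.39 log2 relative to the mean of all libraries. Of 21 Schwann cell and nerve genes, 7 had a higher response and 0 a lower one, with 15 estimates above 0 and 6 below. Their median log2 responses were -0.55 in *Tem1*WT/WT and 0.02 in *Tem1*lacZ/lacZ scars. In *Tem1*lacZ/lacZ scars 1 member was higher and 3 were lower at an unadjusted p under 0.05. *Cdh19*, a cadherin of Schwann cells, had 5.45, 6.34 and 4.28 CPM in *Tem1*WT/WT sham scars and 1.95, 3.89 and 1.15 CPM under traction, and 3.81, 3.30 and 3.45 CPM and then 4.19, 6.01 and 8.09 CPM in *Tem1*lacZ/lacZ scars, with no overlap in either genotype (interaction 1.99 ± 0.56). *Sox10*, a factor that both of these cell types share, gave 1.57 ± 0.52. All 31 skeletal muscle genes had estimates above 0 (median 2.28), of which 5 had a low p. That count was 0 without the first *Tem1*WT/WT sham library (median 1.09) and 27 without the first *Tem1*WT/WT traction library (median 3.50). *Ttn*, titin, had 1302, 289 and 112 CPM in *Tem1*WT/WT sham scars, 133, 37.7 and 29.7 CPM under traction and 66.2 to 223 CPM in *Tem1*lacZ/lacZ libraries (interaction 3.21 ± 1.18). *Trdn*, triadin of the muscle calcium release complex, fell in *Tem1*WT/WT scars (edgeR adjusted p = 0.028) with an interaction of 4.90 ± 1.27.

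The genes with the smallest p and a higher response were of mixed kinds. *Scn3a*, a sodium channel subunit (chr2:65457118-65567591), had 12.3, 10.5 and 6.68 CPM in *Tem1*WT/WT sham scars and 5.19, 4.97 and 6.41 CPM under traction. *Tem1*lacZ/lacZ scars had 5.35, 6.17 and 5.39 CPM in sham and 9.46, 27.2 and 16.1 CPM under traction, where the groups parted the other way (interaction 2.47 ± 0.49, DESeq2 adjusted p = 0.0026). *Pkhd1l1* (chr15:44457396-44601376), which encodes fibrocystin-L, fell from 6.79, 4.76 and 2.29 CPM to 0.238, 0.420 and 0.452 CPM in *Tem1*WT/WT scars (edgeR adjusted p = 0.019) and had 2.09, 2.99 and 3.03 CPM and then 3.30, 1.14 and 1.77 CPM in *Tem1*lacZ/lacZ scars (interaction 3.24 ± 0.68). *Phldb3* (chr7:24610294-24629297) had 24.9, 25.0 and 16.9 CPM and then 12.5, 13.6 and 11.9 CPM in *Tem1*WT/WT scars, and 15.8, 15.8 and 12.9 CPM and then 17.2, 20.1 and 18.8 CPM in *Tem1*lacZ/lacZ scars (interaction 1.16 ± 0.25).

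*Kcna2*, a potassium channel (2.19 ± 0.48), *Shisa2* (1.44 ± 0.32), *Tenm2*, a teneurin (1.77 ± 0.40), *Cttnbp2* (1.70 ± 0.40) and *Gpm6a*, a neuronal membrane glycoprotein (1.57 ± 0.37), fell in *Tem1*WT/WT scars at edgeR adjusted p of 0.019 to 0.033, and their *Tem1*lacZ/lacZ responses were -0.19 to 0.65. *Ms4a2*, the beta chain of the mast cell IgE receptor, had 4.84, 2.99 and 4.03 CPM in *Tem1*WT/WT sham scars and 1.74, 2.14 and 1.01 CPM under traction, and 3.00, 3.16 and 3.57 CPM and then 4.71, 3.70 and 5.17 CPM in *Tem1*lacZ/lacZ scars (interaction 1.76 ± 0.43). Of the 13 mast cell genes 1 had a higher and 1 a lower response. DESeq2 called the interaction of each of these 6 genes.

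Wound-edge stress keratinocyte genes had 9 of 24 members with a lower response and a median of -1.45, and 2 members and -0.57 without the first *Tem1*WT/WT traction library. Glucocorticoid receptor targets had 5 of 18 members with a lower response (median -0.57), CC chemokines and receptors 5 of 24 (median -0.87) and the cornified envelope families 6 of 36 (median -0.31). Without that library these counts were 4, 3 and 2. Of 11 lymphatic endothelial genes 1 had a lower and 3 a higher response (0 and 2 without that library).

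Few members had a low p in lists of general cell functions and fat. Over 86 cytosolic ribosomal proteins the median interaction was -0.03, with 0 members lower and 1 higher. Over 35 genes of cell division it was 0.01 (0 lower, 1 higher), over 65 genes of the respiratory chain -0.11 (1 lower, 0 higher) and over 23 genes of cholesterol synthesis 0.05 (0 in either direction). Adipocyte genes had 0 of 22 members with a low p, with a median of 0.27 that ranged from -1.35 to 2.16 over the alternatives. The genes that the study named for its expression clusters, which were chosen on these libraries and are not independent evidence of direction, had medians of -0.61 (cluster 1, 17 genes, 4 lower), -1.48 (cluster 2, 16 genes, 9 lower) and 1.28 (clusters 3 and 4, 21 genes, 8 higher). Without the first *Tem1*WT/WT traction library cluster 2 had 5 lower and a median of -0.82. With any 1 library left out the counts ranged from 2 to 6 in cluster 1, from 5 to 13 in cluster 2 and from 3 to 16 in clusters 3 and 4, whose lowest count came without the second *Tem1*WT/WT sham library.

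**Figure D5:**
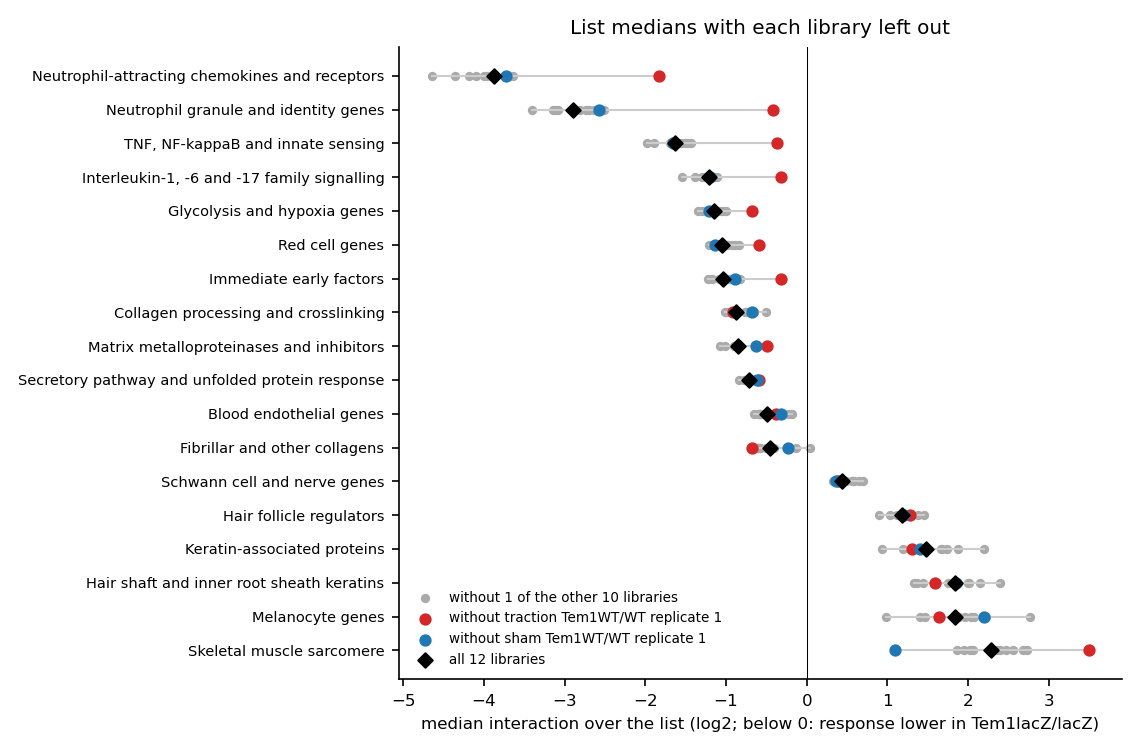
Median log2 interaction over 18 gene lists with all 12 libraries (diamonds) and with each library left out in turn. The red points, without the first Tem1WT/WT traction library, lie nearer 0 for the neutrophil, TNF and interleukin lists, and collagens alone among these lists pass 0.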

How the data were processed

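RNA from whole scars of 12 mice was sequenced, and the authors deposited raw read counts per gene for each library. The submitters' processing notes name fastp 0.20.0, HISAT2 2.1.0, featureCounts 2.0.0 and the build GRCm38, and the annotation and strand setting are not given in the sources used here. Groups come from the sample labels, and p-values measure the spread between the 3 libraries of a group.

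From the counts, 1 edgeR 4.0.16 quasi-likelihood model (robust, TMM normalization, R 4.3.3) of the 4 groups was fitted to the 18853 genes that passed filterByExpr, with Benjamini-Hochberg adjustment. DESeq2 1.42.0, limma 3.58.1 (voom), other filters and scalings, a replicate block and leaving out each library were alternatives. The fits were tested on simulated data. The interaction, the gene lists and their members were chosen with earlier results of these data known. Named genes were *Cd248*, the 12 with the smallest interaction p in each direction, the 3 with the smallest p in each list (mean log2 CPM of at least 1), genes the study names for its clusters, and the 5 in each direction with the smallest adjusted p among DESeq2 calls. Other genes were named after their values were seen, as markers, subunits, exceptions or holders of a promoter motif. Levels are CPM scaled by TMM, and errors of log2 values are standard errors. A result that needs a withheld item is not reported here.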

Additional observations from a re-analysis of the deposited data

Results flagged for a closer look

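In 85 of the genes tested (0.451%) the traction and sham libraries did not overlap in either genotype and lay in opposite directions. Of the named genes 10 were among them, and the difference was not tested by this rule. The response was higher in *Tem1*WT/WT and lower in *Tem1*lacZ/lacZ scars for *Pgf* (interaction -2.55), *Vegfa* (-1.60), *Tnfaip6* (-2.33) and *Ankrd37* (-1.44). It was lower in *Tem1*WT/WT and higher in *Tem1*lacZ/lacZ scars for *Cdh19* (1.99), *Ms4a2* (1.76), *Scn3a* (2.47), *Glcci1* (0.96), *Mmrn1* (1.57) and *Phldb3* (1.16).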

How the results depend on the processing

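The number of interaction genes at an adjusted p under 0.05 was 0 in edgeR, 69 in DESeq2, where 125 genes had no adjusted p, and 0 to 31 with 1 library left out. At an unadjusted p under 0.05 it was 1680, and 1115 to 2778 with 1 library left out. Traction genes in *Tem1*WT/WT scars numbered 1725, against 1011 with all genes of at least 1 count, 4047 in DESeq2, 735 in limma-voom and 0 to 2861 with 1 library left out. In *Tem1*lacZ/lacZ scars they numbered 0, against 23 in DESeq2, 377 in limma-voom and 0 to 73 with 1 library left out. The share of 88.7% with the same sign was 84.3% in DESeq2, 92.1% in limma-voom and 82.1% to 92.3% with 1 library left out. Upper quartile scaling moved the median interaction of all genes to 0.07 and the split at an unadjusted p under 0.05 from 840 lower and 840 higher to 615 and 1030.

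Medians kept their sign in 20 of 20 alternatives for each leading list except the collagens (19 of 20). With 1 library left out, the median interaction ranged from -0.68 to 0.042 for collagens, -1.01 to -0.51 for collagen processing, -1.07 to -0.49 for metalloproteinases, -3.40 to -0.42 for neutrophil genes, -4.64 to -1.83 for neutrophil chemokines, -1.54 to -0.32 for interleukin signalling, -1.98 to -0.37 for TNF and NF-kappaB, -0.66 to -0.19 for blood endothelium, -1.35 to -0.68 for glycolysis, -0.84 to -0.59 for the secretory pathway, 1.09 to 3.50 for muscle, 0.32 to 0.70 for Schwann cells, -1.21 to -0.59 for red cells and -1.22 to -0.32 for immediate early factors. In limma-voom it was -0.43 for metalloproteinases, -1.26 for neutrophil genes, -2.36 for neutrophil chemokines, -0.62 for interleukin signalling, -0.82 for TNF and NF-kappaB, -0.18 for blood endothelium, -0.58 for the secretory pathway, 0.68 for Schwann cells, -0.77 for red cells and -0.50 for immediate early factors. The sign turned in limma-voom for *Col1a1* (0.11) and *Col1a2* (0.047). With 1 library left out, *Cd248* ranged from -1.40 to 0.17, *Col1a1* from -0.57 to 0.32 and *Col1a2* from -0.61 to 0.30. The cause was not tested.

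With the replicate number as a block, 0 interaction genes passed, 1765 had an unadjusted p under 0.05 (779 lower, 986 higher), and 1467 and 0 traction genes were called in *Tem1*WT/WT and *Tem1*lacZ/lacZ scars. The block moved the count of melanocyte genes with a higher response from 3 to 10, of hair keratins from 10 to 18 and of study clusters 3 and 4 from 8 to 15. Libraries with the same number had correlations of -0.324 to 0.25 between their deviations from group means, and those with different numbers -0.403 to 0.373, so the numbers were not taken as pairs.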
